A study of Mus musculus with 2 samples.

Results

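Endothelial cells, which line blood and lymphatic vessels, were described in colorectal tumours of mice given azoxymethane and dextran sulfate sodium (AOM-DSS), a carcinogen followed by an agent that causes colitis. The series profiled such tumours by droplet single-cell RNA sequencing in cKO mice, with the genotype Mtch2fl/fl VilCre, and in WT mice, with the genotype Mtch2fl/fl and no Cre. Both groups therefore carried the floxed Mtch2 alleles and received the same treatment, and Cre under the Villin promoter acts in the intestinal epithelium, not in vessels. Tumours were pooled by genotype before dissociation with trypsin, which left 1 library per genotype, and the pooled mice cannot be told apart. Levels are counts of unique molecular identifiers (UMIs) summed over cells and given per 1000000 UMIs (CPM).

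Of 10189 cells that passed the filters, 92 met the rule for endothelial cells, 47 of 4264 in the cKO library and 45 of 5925 in the WT library. Cells were chosen from their counts of 6 endothelial genes (Pecam1, Cdh5, Kdr, Egfl7, Plvap and Flt1). A cell needed at least 500 genes, at least 800 UMIs and at most 25% mitochondrial UMIs. It also needed at least 4 UMIs of the 6 genes, at least 6 per 10000 UMIs and 2 of the genes detected. It could hold neither 2 UMIs of the leukocyte gene Ptprc nor 10 per 10000 UMIs of the collagen-associated genes Col1a1, Col1a2 and Dcn. The members were 1.10% of filtered cells in cKO (exact 95% interval 0.811 to 1.46%) and 0.760% in WT (0.555 to 1.02%). With 1 library per genotype no test between genotypes could be made. Intervals express the error of counting UMIs or cells and hold nothing of the spread between mice, and every ratio is a difference between these libraries.

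The vascular endothelium controls the passage of solutes and leukocytes into tissue. Its cells are held together by the adhesion molecules Pecam1 and Cdh5 and respond to vascular endothelial growth factor (VEGF) through the receptors Flt1, Kdr and Flt4. Arteries, veins and capillaries are lined by cells with partly different genes, and growing sprouts are led by tip cells. Lymphatic endothelium, specified by the transcription factor Prox1, drains fluid and guides dendritic cells and lymphocytes with the chemokine Ccl21a.

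The label endothelial held for most but not all of the 92 cells. In 17 of them, 4 in cKO and 13 in WT, the UMIs of 5 epithelial genes (Epcam, Krt8, Krt18, Krt19 and Cdh1) outnumbered those of 36 endothelial genes, and these are called epithelial type. This split was made after the data were seen. The types lay apart, with at least 1.79 epithelial UMIs per endothelial UMI in the cKO cells of epithelial type and at least 1.52 in those of WT. The remaining 43 cKO cells had at most 0.444 and the remaining 32 WT cells at most 0.625. Cells between 0.5 and 2 numbered 1 in cKO and 2 in WT. The 17 cells of epithelial type were deep, with medians of 41506 UMIs in cKO and 23740 in WT, so that they held 33.3% of all member UMIs in cKO and 56.9% in WT.

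**Figure D1:**
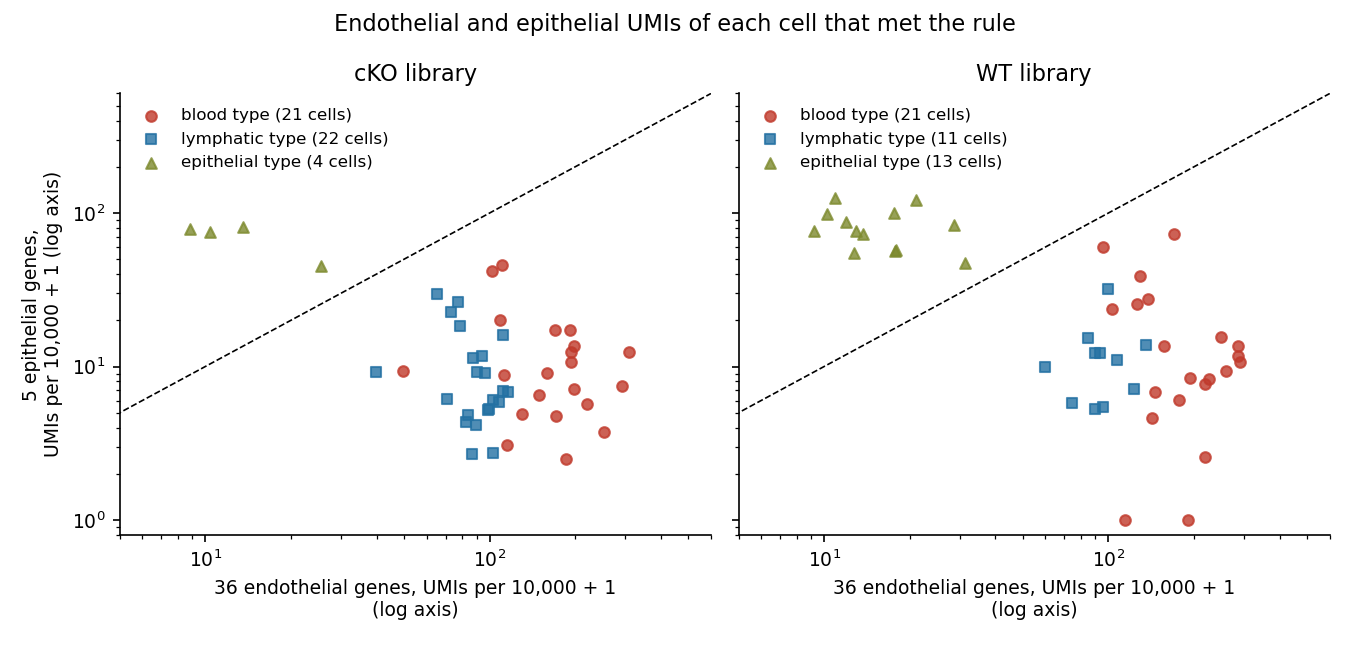
Each point is 1 cell that met the rule, with the UMIs per 10000 (plus 1, log axes) of 36 endothelial genes on the x axis and of 5 epithelial genes on the y axis, for cKO at the left and WT at the right; the dashed line marks equal values. The 4 cKO and 13 WT cells of epithelial type lie above the line, apart from the 43 cKO and 32 WT cells below it.

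Most cells of epithelial type met the rule mainly through Flt1. Flt1 stood at 961 CPM in the 4 cKO cells and 621 CPM in the 13 WT cells. Kdr was at 5.01 CPM in cKO from 1 UMI and had no UMI in WT. Plvap likewise had 1 UMI in cKO and none in WT. Pecam1 stood at 5.01 CPM in cKO and 160 CPM in WT. Of its 59 UMIs in WT, 30 were in 1 cell and 21 in another, which held 4 and 2 Flt1 UMIs. Another WT cell had 11 Cdh5 and 9 Flt1 UMIs, and 1 had 0 Flt1 UMIs. Flt1 was also found in epithelial cells outside the rule, at 20.51 CPM over 2141 cKO cells and 30.7 CPM over 4594 WT cells with at least 40 epithelial UMIs per 10000. Of those cells, 66 in cKO and 149 in WT carried at least 5 Flt1 UMIs. In T cells, which should lack Flt1, the level was 3.11 CPM in cKO and 3.30 CPM in WT. Prox1, the lymphatic regulator, stood at 224 CPM in those epithelial cells of cKO and 270 CPM in those of WT, so that Prox1 alone did not mark lymphatic cells here. The rule's threshold ran through cells of this kind: the 3 cKO members and 6 WT members under 9 marker UMIs per 10000, at 6.72 to 7.06 in cKO and 6.09 to 8.62 in WT, were all of epithelial type. So were all 10 cKO and 15 WT cells just outside it, at 3.21 to 5.90 in cKO and 3.02 to 5.97 in WT.

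The 75 remaining cells, called endothelial type, made up 1.01% of filtered cells in cKO (0.731 to 1.36%) and 0.540% in WT (0.370 to 0.762%). They split into 42 blood-type cells, 21 in cKO and 21 in WT, and 33 lymphatic-type cells, 22 in cKO and 11 in WT. A lymphatic-type cell had at least 3 UMIs over Prox1, Lyve1, Mmrn1, Ccl21a, Reln and Pdpn, with 2 of them detected. The fewest such UMIs in a lymphatic-type cell were 16 in cKO and 29 in WT. The most in a blood-type cell were 15 in cKO, all of the 1 gene Pdpn in 1 cell, and 1 in WT. Lymphatic-type cells were 51.2% of the endothelial-type cells in cKO (35.5 to 66.7%) and 34.4% in WT (18.6 to 53.2%). With lymphatic genes added to the markers that choose the members, and with cells of epithelial type kept, the lymphatic share was 25.9% in cKO and 15.6% in WT. As shares of all filtered cells, lymphatic-type cells were 0.516% in cKO (0.324 to 0.780%) and 0.186% in WT (0.0927 to 0.332%), and blood-type cells 0.493% in cKO (0.305 to 0.752%) and 0.354% in WT (0.220 to 0.541%). By the call over all 92 members, which keeps the cells of epithelial type, 46.8% were lymphatic in cKO and 26.7% in WT, where 1 of the 12 called cells was of epithelial type. The part of dissociation and of pooling in these shares was not tested.

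The libraries held 97364087 UMIs in cKO and 116066712 in WT before filtering, with medians of 7915 and 6218 UMIs per filtered cell. Blood-type cells had a median of 7214 UMIs in cKO and 4410 in WT, and lymphatic-type cells 7882 in cKO and 7666 in WT. In all, levels rest on 186149 UMIs of blood-type cells in cKO and 138474 in WT, and on 213921 and 140538 UMIs of lymphatic-type cells. Deep cells weigh most in these sums. The deepest blood-type cell held 38353 UMIs in cKO and 18833 in WT, and the deepest lymphatic-type cell 35745 in cKO and 34904 in WT. Because depth differs, the number of cells with a UMI of a gene is given only to show how many cells a level rests on. Between the libraries 13 barcodes of filtered cells were shared, and 1 member had its barcode in the other library. Each library pooled animals of both sexes: 17 cKO and 15 WT members carried Xist without Y-linked transcripts, and 16 cKO and 14 WT members the reverse. Both kinds of transcript were found in 5 cKO and 9 WT members, and neither in 9 cKO and 7 WT members. Markers of T cells were at 0 in all 42 blood-type cells. Krt8 stood at 247 CPM in cKO and 347 CPM in WT blood-type cells, beside 220 CPM in cKO and 355 CPM in WT T cells, which do not make keratin.

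Mtch2, the deleted gene, encodes a protein of the outer mitochondrial membrane. In epithelial cells outside the rule it stood at 23.6 CPM in cKO and 93.3 CPM in WT. The members of epithelial type showed the same order, with 25.03 CPM in cKO and 84.1 CPM in WT. In blood-type cells Mtch2 was at 59.1 CPM in cKO (11 UMIs, interval 29.5 to 106) and 21.7 CPM in WT (3 UMIs, 4.47 to 63.3). In lymphatic-type cells it was at 42.1 CPM in cKO (9 UMIs, 19.2 to 79.9) and 71.2 CPM in WT (10 UMIs, 34.1 to 131). The intervals of cKO and WT overlapped in both vessel types. E2f4, a transcription factor gene named in the series title, had 5 UMIs in cKO and 5 in WT blood-type cells, and Tfrc, the transferrin receptor gene, 11 UMIs in cKO and 3 in WT.

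The 6 genes of the rule are given as a description, since they chose the cells. In endothelial-type cells Flt1 stood at 1057 CPM in cKO and 1301 CPM in WT, Pecam1 at 897 and 960.5 CPM, and Egfl7, a secreted vascular matrix protein, at 852 and 799 CPM. Cdh5, the cadherin of endothelial junctions, stood at 650 CPM in cKO and 745.5 CPM in WT. Plvap, the protein of the diaphragms that bridge fenestrae, was at 587 CPM in cKO and 767 CPM in WT, and Kdr at 350 CPM in cKO and 534 CPM in WT. Over the other filtered cells the levels of these genes were at most 23.5 CPM in cKO and 28.2 CPM in WT. Flt1 divided the types: in blood-type cells it stood at 2262 CPM in cKO and 2621 CPM in WT, and in lymphatic-type cells at 9.35 CPM in cKO from 2 UMIs and at 0 UMIs in WT. Per cell, Flt1 ranged in blood-type cells over 1 to 101 UMIs in cKO, with a median of 10, and over 0 to 87 UMIs in WT, with a median of 7.

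Other genes that the rule did not name followed the same cells. Leading the endothelial-type cells over all other filtered cells were Mmrn1, Ccl21a, Tll1, Ldb2 and Gpihbp1. Gpihbp1, which anchors lipoprotein lipase on capillaries, stood at 105 CPM in cKO and 150.5 CPM in WT endothelial-type cells, against 0.108 and 0.0272 CPM in the other cells. Ldb2, a LIM-domain binding protein, stood at 912 CPM in cKO and 1161 CPM in WT, against 0.799 and 0.526 CPM in the other cells. Flt4, the receptor for the lymphatic growth factor Vegfc, was at 617 CPM in cKO and 545 CPM in WT, against 0.724 and 0.444 CPM. These values describe the chosen cells, and no test was made on them.

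**Figure D2:**
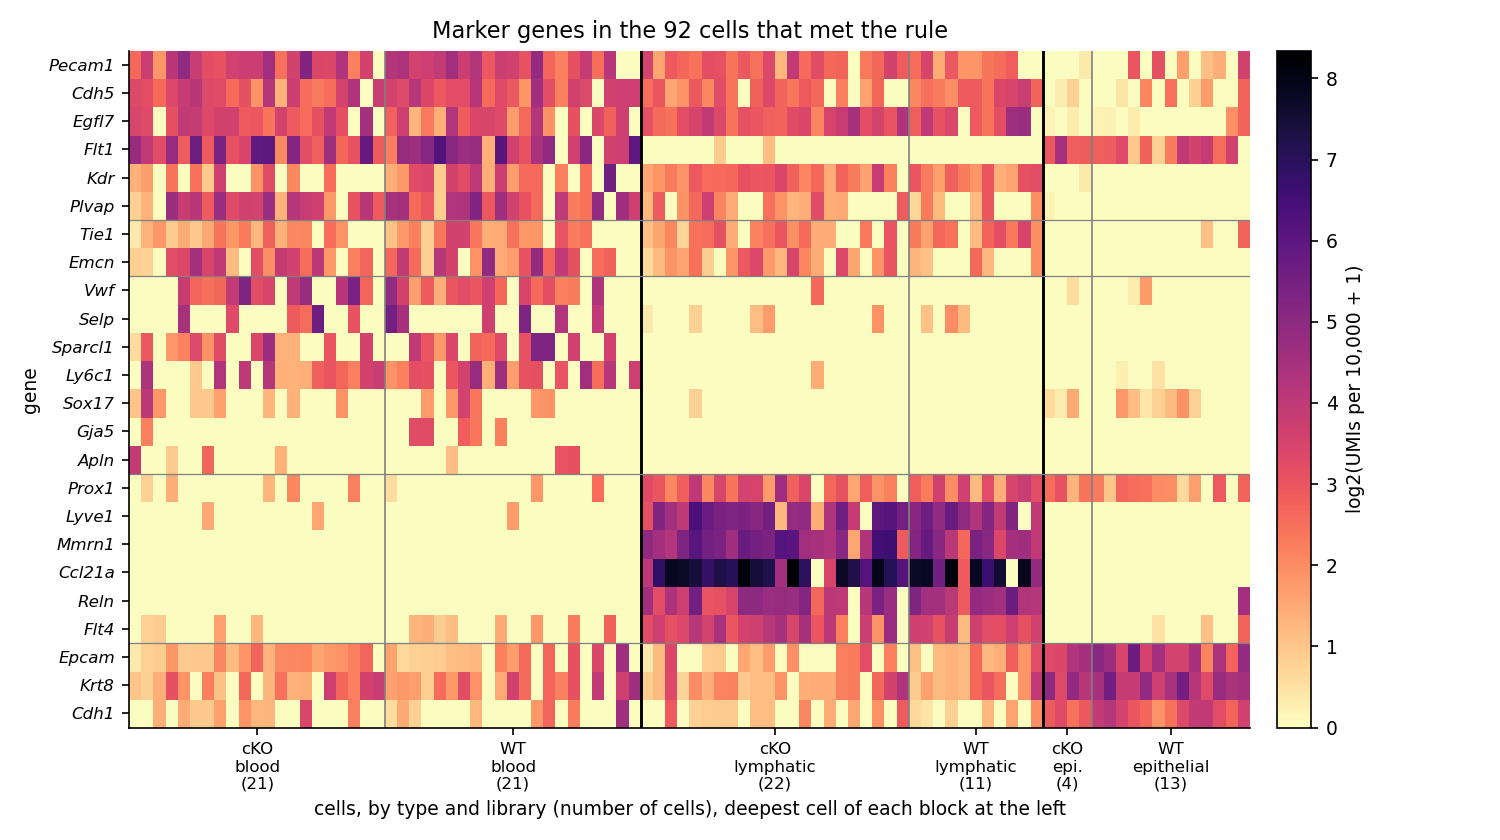
Each column is 1 of the 92 cells and each row a gene, with colour for log2 of UMIs per 10000 plus 1; cells are grouped by type, cKO left of WT, with the deepest cell of each group at the left. Flt1 is found in most of the blood-type and epithelial-type columns. Mmrn1 is found in all 22 cKO and 11 WT lymphatic-type columns and in none of the blood-type ones.

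The promoters of Flt1 and Mmrn1, abundant genes of blood and lymphatic type, are shown as an example of each. Flt1 helped to choose the members but had no part in the call of lymphatic type, while Mmrn1 is 1 of the 6 genes of that call, so its difference between the types restates it. Mmrn1, which encodes a secreted multimerin, stood at 3693 CPM in cKO and 3273 CPM in WT lymphatic-type cells and had no UMI in either library's blood-type cells. The stretches are the 250 bases before the annotated start in RefSeq on GRCm38.p6, the assembly behind the files' build mm10, read in the direction of transcription. Flt1 lies at chr5:147726012-147726261 on the minus strand and Mmrn1 at chr6:60944067-60944316 on the plus strand. Capitals mark GGAAG, a core bound by ETS factors such as Erg and Fli1, and ACAAT, a core bound by SOX factors such as Sox17 and Sox18, each searched on both strands and without overlap between matches.
Flt1: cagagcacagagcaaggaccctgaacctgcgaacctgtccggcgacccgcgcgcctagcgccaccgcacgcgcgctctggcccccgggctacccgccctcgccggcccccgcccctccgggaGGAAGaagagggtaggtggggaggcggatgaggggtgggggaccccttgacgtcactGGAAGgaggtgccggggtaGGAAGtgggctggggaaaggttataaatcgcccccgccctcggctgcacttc
Mmrn1: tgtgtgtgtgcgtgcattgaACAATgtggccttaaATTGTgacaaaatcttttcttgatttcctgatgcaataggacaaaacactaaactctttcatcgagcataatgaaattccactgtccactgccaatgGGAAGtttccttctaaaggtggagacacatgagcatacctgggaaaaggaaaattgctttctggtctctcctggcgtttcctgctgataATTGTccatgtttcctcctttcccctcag
The Flt1 stretch held GGAAG 3 times and ACAAT 0 times, and the Mmrn1 stretch held GGAAG 1 time and ACAAT 3 times. Of 32851 promoter stretches of this length, 64.1% held GGAAG and 27.7% held ACAAT, so the matches are a description of these letters. Erg stood in blood-type cells at 269 CPM in cKO and 260 CPM in WT, and Fli1 in lymphatic-type cells at 425 and 363 CPM. Sox17 had 1 UMI in cKO and 0 UMIs in WT lymphatic-type cells, the type with Mmrn1.

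Genes of the lymphatic list were higher in lymphatic-type cells, and most matrix and leukocyte adhesion genes were higher in blood-type cells, in both libraries. Of 3001 genes with at least 50 UMIs over all endothelial-type cells, 235 (7.83%) were more than 2-fold higher in lymphatic type in both libraries and 173 (5.76%) more than 2-fold lower. Past 2-fold in opposite directions were 27 (0.900%). The types were called from 6 genes, so these counts describe the calls, and blood-type and lymphatic-type cells of a library share its preparation. All 12 measured genes of the lymphatic list were past 2-fold higher in both libraries, of which 6 made the call.

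Ccl21a, listed as ENSMUSG00000094686, encodes the chemokine that draws cells into lymphatics and is 1 of the 6 genes that made the call, so its difference between the types is no result. It stood at 13351 CPM in cKO and 16501 CPM in WT lymphatic-type cells, in 21 of 22 and 10 of 11 cells, and at 0 UMIs in both libraries' blood-type cells. Its near-identical copies in the mouse genome mean that reads of several Ccl21 genes may be counted here. Among genes outside the call, Nts, which encodes the peptide neurotensin, stood at 491 CPM in cKO and 470 CPM in WT lymphatic-type cells and at 0 UMIs in blood type. The transcription factor gene Maf was at 1398 CPM in cKO and 1323 CPM in WT lymphatic-type cells, against 10.7 CPM and 0 UMIs in blood-type cells. Fgl2, a fibrinogen-like protein, was at 2094 and 2483 CPM against 26.9 and 7.22 CPM, and Cp, the ferroxidase ceruloplasmin, at 1393 and 811 CPM against 26.9 and 21.7 CPM. Ackr2, a receptor that scavenges inflammatory chemokines, stood at 210 CPM in cKO and 349 CPM in WT lymphatic-type cells, against 0 and 1 UMI in blood-type cells.

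Blood-type cells led in matrix, vessel-wall and leukocyte-adhesion genes. Sparcl1, a secreted matrix protein, had no UMI in lymphatic-type cells and stood at 376 CPM in cKO and 643 CPM in WT blood-type cells. Vwf, the von Willebrand factor of clotting, was at 14.0 CPM in cKO and at 0 UMIs in WT lymphatic-type cells, against 688 CPM in cKO and 917 CPM in WT blood-type cells. Igfbp3 was at 37.4 and 7.12 CPM in lymphatic type against 2015 and 2737 CPM in blood type. Nrp1, a co-receptor for VEGF, had 0 UMIs in cKO and 1 in WT lymphatic-type cells, against 355 and 455 CPM in blood type. Its relative Nrp2 was at 813 CPM in cKO and 982 CPM in WT lymphatic-type cells, against 204 and 217 CPM in blood type. Kdr differed less between the types, with 453 CPM in cKO and 477 CPM in WT lymphatic-type cells, against 231 and 592 CPM in blood type. By list, 10 of 17 measured basement membrane and matrix genes and 8 of 13 leukocyte adhesion genes were past 2-fold lower in lymphatic type in both libraries. So were 7 of 10 niche ligand genes (Wnt, R-spondin and others), 5 of 9 arterial genes and 5 of 8 venous genes, while 2 venous genes were past 2-fold higher in lymphatic type in both libraries. Of 21 measured interferon and MHC class I genes, 13 were higher in lymphatic type in both libraries, none of them past 2-fold.

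**Figure D3:**
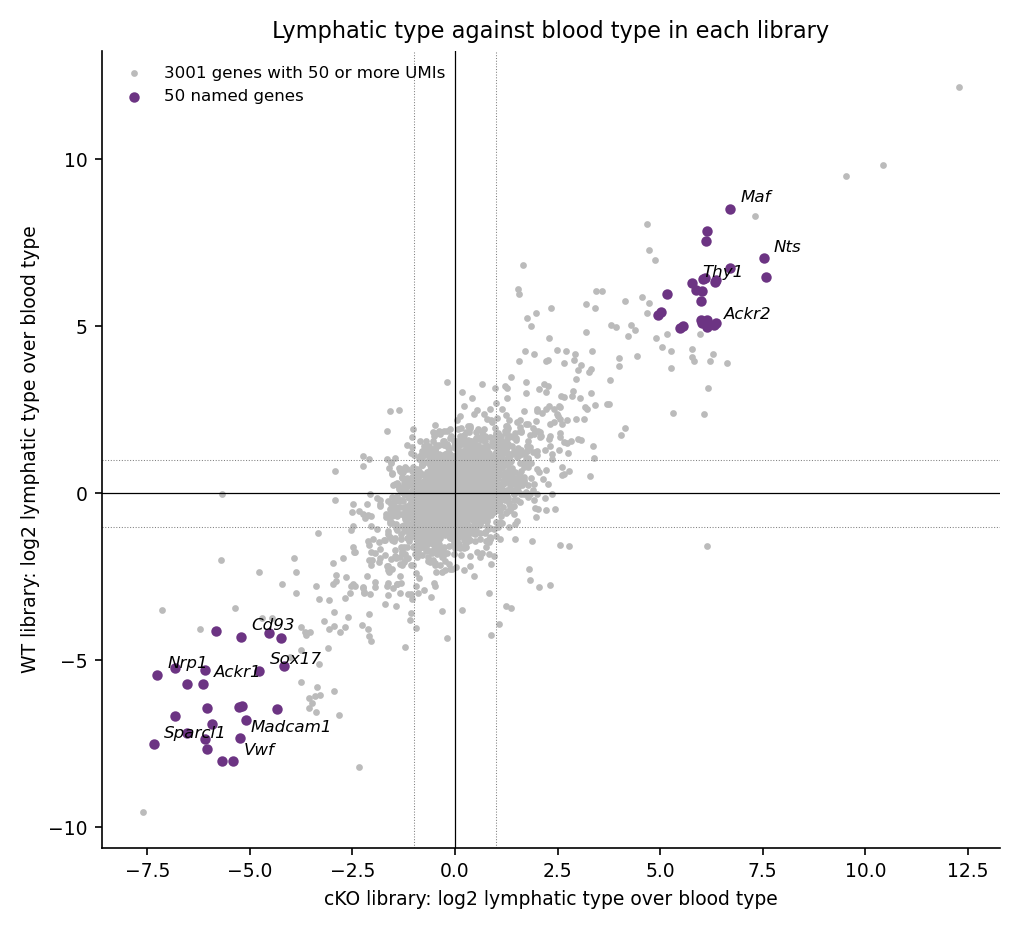
Each point is 1 of 3001 genes, with the log2 ratio of lymphatic-type over blood-type CPM in cKO on the x axis and in WT on the y axis; dotted lines mark 2-fold and purple points are the 50 named genes, which leave out those of the rule and the lymphatic call. Nts lies at 7.52 in cKO and 7.03 in WT, and Sparcl1 at -7.34 and -7.51.

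Blood-type cells held several kinds of vessel. At least 2 UMIs of the venous genes Selp or Ackr1 were found in 6 of 21 cells in cKO and 6 of 21 in WT. Selp encodes P-selectin, which slows leukocytes on the vessel wall, and Ackr1 a chemokine receptor of venules. The artery gene Gja5, a gap-junction protein, reached 2 UMIs in 1 cKO cell and 5 WT cells. The tip-cell genes Esm1 or Apln did so in 5 cKO and 7 WT cells, and the capillary genes Gpihbp1 or Cd36 in 5 cKO and 3 WT cells. In 7 cKO and 5 WT cells none of these reached 2 UMIs, and no cell had both venous and arterial genes at that level. More than 1 of the 4 kinds reached that level in 3 cKO and 5 WT cells.

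Between cKO and WT, the sums over all members were shaped by the cells of epithelial type. Of 5073 genes with at least 50 UMIs, 138 (2.72%) were past 2-fold higher in cKO and 173 (3.41%) past 2-fold lower, and the median log2 ratio of all genes was 0.01. Among endothelial-type cells alone, 78 of 3001 genes (2.60%) were past 2-fold higher and 72 (2.40%) lower. Iapp, the gene of islet amyloid polypeptide, had 0 UMIs in cKO members and 89 in WT, of which 88 were in 1 cell. The interferon-induced gene Ifit1 stood at 403 CPM in cKO and 107 CPM in WT, with 236 of 242 cKO UMIs in 1 cell. Without the cell of most of its UMIs in each library its log2 ratio was -1.59 in place of 1.91, and that of Ifih1, a sensor of viral RNA, -0.36 in place of 2.15. The 4 highest ratios, of Cntn3, Ccl2, Gabrb1 and Lypd6, rested on 2 to 4 cells in cKO. Pparg, a lipid-sensing nuclear receptor, was spread wider, at 78.4 CPM in 20 cKO cells and 13.9 CPM in 8 WT cells. The comparisons between libraries are therefore given by type, with the cells of epithelial type left out, a choice made after the data were seen.

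In blood-type cells of the cKO library, 5 of 8 measured arterial genes and 2 of 6 venous genes were past 2-fold lower, and 3 of 8 glycolysis and hypoxia genes past 2-fold higher. Of 1276 genes measured, 59 (4.62%) were past 2-fold higher in cKO and 84 (6.58%) past 2-fold lower, with a median log2 ratio of -0.06. Of the arterial genes, 6 were lower and 2 higher, none of these past 2-fold, with a median of -1.20. In the summed counts, other endothelial genes were also lower on balance. Of 23 measured pan-endothelial genes outside the rule, 15 were lower, 2 of them past 2-fold. Their median was -0.32 and their summed log2 ratio -0.26 (-0.36 to -0.17). Per cell, the 36 endothelial genes, rule genes included, had medians of 170.6 UMIs per 10000 in cKO and 175.4 in WT. The deepest cKO cell, with 38353 UMIs, stood at 114.2, and another, with 11935 UMIs, at 48.6. The part of these cells in the sums was not tested. Of the 6 rule genes 5 were lower, but these genes chose the cells, so this is a description only. Summed, the arterial list stood at 2503 CPM in cKO and 5106 CPM in WT, a log2 ratio of -1.03 (-1.20 to -0.86). Per cell, it ranged over 3.72 to 78.6 UMIs per 10000 in cKO, with a median of 19.3, and over 0 to 120 in WT, with a median of 32.7. The ranges overlapped.

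Efnb2, the ephrin that marks arterial endothelium, stood at 156 CPM in cKO (29 UMIs in 8 cells) and 527 CPM in WT (73 UMIs in 11 cells), a log2 ratio of -1.74 (-2.43 to -1.12). Mecom, a transcription factor gene active in arteries, was at 1091 CPM in cKO and 2195 CPM in WT, a log2 ratio of -1.01 (-1.27 to -0.75), with a UMI in 19 cells of each library. The Notch ligand gene Jag1 was at 102 and 289 CPM, the elastic-fibre gene Fbln5 at 134 and 354 CPM, and Vegfc at 140 and 426 CPM. For Vegfc the log2 ratio of -1.59 became -0.89 without the cell of most UMIs in each library. Other arterial genes stayed within 2-fold: Sox17, a transcription factor gene, was at 188 CPM in cKO and 137 CPM in WT, and Dll4, a Notch ligand gene, at 226 and 267 CPM. Arterial cells being fewer and arterial genes being lower in each cell could not be told apart at 21 cells per library.

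Measured venous and capillary genes stood lower in the summed counts of cKO blood-type cells, as did most pan-endothelial genes. Of 6 venous genes all were lower, 2 of them past 2-fold, with a median of -0.58. Selp was at 349 CPM in cKO and 1069 CPM in WT, a log2 ratio of -1.61, or -1.29 without the top cell of each library. Madcam1, the addressin that binds gut-homing lymphocytes, was at 86.0 and 570.5 CPM, from 3 cells in each library. Of 5 capillary genes all were lower, 1 past 2-fold: Slc9a3r2, a scaffold protein, stood at 172 CPM in cKO and 419 CPM in WT. Fabp4, a fatty-acid carrier of capillaries, was at 1074 and 1242 CPM.

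VEGF, angiopoietin and Notch genes were lower in 9 of 10 measured cases, 2 of them past 2-fold, with a median of -0.45. Kdr, the main signalling receptor for VEGF, was at 231 CPM in cKO (43 UMIs) and 592 CPM in WT (82 UMIs), a log2 ratio of -1.35 (-1.93 to -0.81). It is not on this list because it helped to choose the cells, so its ratio is a description only. Tie1 and Tek, the receptors of the angiopoietin pathway, were at 183 and 263 CPM in cKO and 347 and 455 CPM in WT. Past 2-fold higher was Pgf, a VEGF relative that binds Flt1, at 301 CPM in cKO and 43.3 CPM in WT, with 43 of its 56 cKO UMIs in 1 cell. Apln, the tip-cell peptide apelin, stood at 328 CPM in cKO and 36.1 CPM in WT, but 53 of 61 cKO UMIs were in 1 cell. The tip-cell list as a whole split evenly, with 5 of 10 genes higher and 5 lower and a median of -0.11.

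Glycolysis and hypoxia genes were higher in 7 of 8 measured cases, 3 of them past 2-fold, with a median of 0.63. Gapdh stood at 919 CPM in cKO (171 UMIs in 20 cells) and 318 CPM in WT (44 UMIs in 13 cells), a log2 ratio of 1.52 (1.05 to 2.04). Pgk1, phosphoglycerate kinase, was at 269 CPM in cKO and 43.3 CPM in WT, and Pkm, pyruvate kinase, at 430 and 209 CPM. Of 50 Pgk1 UMIs in cKO, 21 were in 1 cell, and its log2 ratio of 2.53 became 2.83 without the top cell of each library. The 1 gene lower was Epas1, the endothelial hypoxia-inducible factor, at 312 CPM in cKO and 816 CPM in WT, past 2-fold. Summed, the list stood at 4394 CPM in cKO and 3300 CPM in WT, a log2 ratio of 0.41 (0.25 to 0.58). The deepest cKO cell, with 38353 UMIs, stood at 52.4 UMIs of the list per 10000, and the highest, with 11935 UMIs, at 105.6. The part of these cells in the sum was not tested. The list's per-cell medians were 35.4 UMIs per 10000 in cKO and 31.02 in WT, and the ranges overlapped. Averaged over cells with equal weight, the list's median ratio was 0.40. Gapdh and Pgk1 have processed copies in the genome that counting can confuse with them.

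Matrix genes showed a smaller shift, with 11 of 16 lower in cKO, 2 of them past 2-fold, and a median of -0.35. Igfbp7, an abundant secreted protein of tumour vessels, stood at 2998 CPM in cKO and 5026 CPM in WT, Sparc at 1440 and 2311 CPM, and the collagen IV gene Col4a1 at 1902 and 2419 CPM. Past 2-fold were Fbln2, at 156 and 412 CPM, and Fn1, at 129 and 491 CPM, where the log2 ratio of -1.91 became -0.61 without the top cell of each library. Timp3, an inhibitor of metalloproteinases that was named by the size of its ratio, was at 231 CPM in cKO and 1090 CPM in WT, a log2 ratio of -2.23 (-2.76 to -1.74). Depp1, a FOXO-regulated gene, was at 37.6 CPM in cKO and 325 CPM in WT, a log2 ratio of -3.03 (-4.51 to -1.95). Endothelial transcription factor genes were lower in 11 of 16 cases with a median of -0.42, Epas1 and Mecom past 2-fold, and Klf2, induced by blood flow, at 790 CPM in cKO and 1473 CPM in WT.

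Leukocyte adhesion and recruitment genes moved both ways, 3 past 2-fold higher and 4 past 2-fold lower of 11. The neutrophil chemokine genes Cxcl1 and Cxcl2 stood at 994 and 628.5 CPM in cKO and 159 and 36.1 CPM in WT. Of 185 Cxcl1 UMIs in cKO, 154 were in 1 cell, without which, and without the top WT cell, the log2 ratio was 1.497. Ccl2, a monocyte chemokine gene, had all 111 of its cKO UMIs in 1 cell. Cd34, a sialomucin of the vessel wall, was lower at 236 and 520 CPM. Summed neutrophil markers stood beside these at 107 CPM in cKO (20 UMIs) and 36.1 CPM in WT (5 UMIs), with 3 of 8 markers at 0 in both libraries. Summed macrophage and monocyte markers were at 102 CPM in cKO and 50.6 CPM in WT, and reached 29.8 per 10000 in 1 cKO cell. Epithelial markers were at 1091 CPM in cKO and 1509 CPM in WT. The part of these cells' RNA in the results was not tested.

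Immediate early and stress genes, which cells switch on within minutes of a stimulus and during tissue dissociation, differed between the libraries in opposite directions in the vessel types. In blood-type cells 17 of 21 measured genes were lower in cKO, 10 of them past 2-fold, and none was past 2-fold higher, with a median of -0.90. Summed, they stood at 9498 CPM in cKO and 16566 CPM in WT, a log2 ratio of -0.80 (-0.89 to -0.71). In lymphatic-type cells 21 of 22 were higher, 13 of them past 2-fold, with a median of 1.55. Their sum was 16039 CPM in cKO (3431 UMIs) and 5941 CPM in WT (835 UMIs), a log2 ratio of 1.43 (1.32 to 1.54). The 2 deepest cKO lymphatic-type cells, with 35745 and 15727 UMIs, also had the highest levels of the list in that group. These were 320 and 522 UMIs per 10000, against a median of 86.8. The part of these 2 cells in the sum was not tested. The difference between the vessel types was not tested.

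The highest immediate early levels in blood type were in WT cells, the top 2 at 575 and 474 UMIs per 10000. In lymphatic type they were in cKO cells, the top 2 at 522 and 320. In blood-type cells the list ranged over 25.5 to 264 UMIs per 10000 in cKO, with a median of 74.5, and over 36.2 to 575 in WT, with a median of 86.8. In lymphatic-type cells it ranged over 26.9 to 522 in cKO, with a median of 86.8, and over 40.7 to 146 in WT, with a median of 57.9. The ranges overlapped in both types. Without the cell of highest level in each library, the lymphatic median ratio was 0.87 in place of 1.55, and the blood median ratio -0.95 in place of -0.90. This dropped cells by level per 10000 and not by their weight in the sums. The WT blood-type cell at 474, with 12628 UMIs, stayed in, while the cell dropped at 575 held 1738 UMIs. The cKO lymphatic-type cell at 320, with 35745 UMIs, stayed in too. The ratios without these deeper cells were not computed.

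Fos, an AP-1 transcription factor gene, stood in blood-type cells at 489 CPM in cKO and 1488 CPM in WT, and in lymphatic-type cells at 1711 CPM in cKO and 306 CPM in WT. Of its 366 UMIs in cKO lymphatic-type cells, 224 were in 1 cell. Egr1 was at 188 CPM in cKO and 838 CPM in WT blood-type cells, and at 940 CPM in cKO and 121 CPM in WT lymphatic-type cells. In cKO lymphatic-type cells 108 of its 201 UMIs were in 1 cell. The heat-shock genes Hspa1a and Hspa1b, nearly identical in sequence, stood in blood type at 177 and 102 CPM in cKO and 780 and 672 CPM in WT. In lymphatic type they stood at 1052 and 715 CPM in cKO and 263 and 221 CPM in WT. Zfp36, which destabilises inflammatory mRNAs, was at 519 CPM in cKO and 28.5 CPM in WT lymphatic-type cells, from 16 of 22 and 3 of 11 cells, with 75 of 111 cKO UMIs in 1 cell. The median share of mitochondrial UMIs was 6.79% in cKO and 5.39% in WT blood-type cells, and 5.24% in cKO and 2.96% in WT lymphatic-type cells, and its part was not tested.

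**Figure D4:**
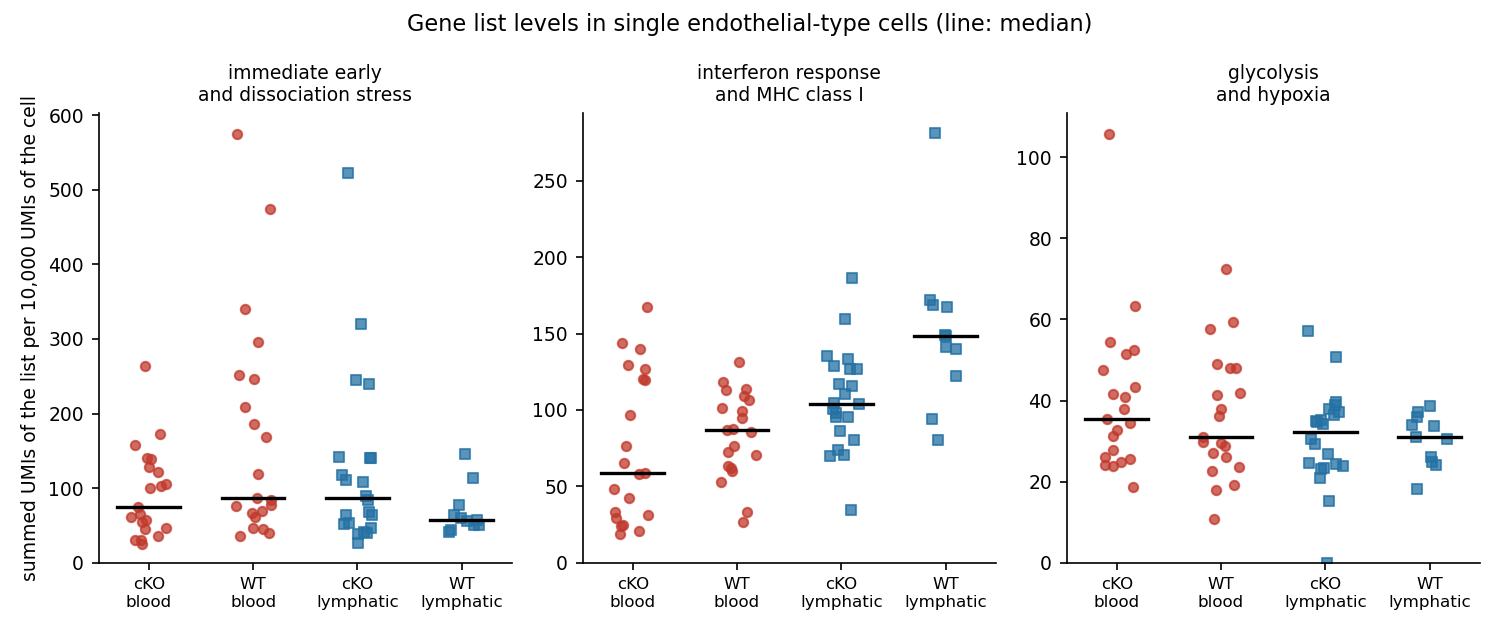
Each point is 1 endothelial-type cell and each line a median; the y axes give summed UMIs of 3 gene lists per 10000 UMIs of the cell, and groups run from blood type to lymphatic type, with cKO left of WT. For immediate early genes the medians are 74.5 and 86.8 in blood type and 86.8 and 57.9 in lymphatic type, with 1 cKO lymphatic-type cell at 522 and 1 WT blood-type cell at 575.

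In lymphatic-type cells of the cKO library, interferon and MHC class I genes were lower. Of 1480 genes measured in this type, 87 (5.88%) were past 2-fold higher in cKO and 51 (3.45%) past 2-fold lower, with a median of -0.06. Of 14 measured interferon and MHC class I genes, 13 were lower and 6 of them past 2-fold, with a median of -0.71. Summed, they stood at 9910 CPM in cKO and 15761 CPM in WT, a log2 ratio of -0.67 (-0.76 to -0.58). Per cell they ranged over 34.7 to 186 UMIs per 10000 in cKO, with a median of 104, and over 80.6 to 281 in WT, with a median of 149. The ranges overlapped.

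Iigp1, an interferon-induced GTPase, stood at 168 CPM in cKO (36 UMIs in 12 of 22 cells) and 747 CPM in WT (105 UMIs in 9 of 11 cells), a log2 ratio of -2.14 (-2.74 to -1.59). Bst2, which tethers viruses at the cell surface, was at 187 CPM in cKO and 555 CPM in WT, and Gbp7, a guanylate-binding protein, at 88.8 and 292 CPM. Psmb8, a subunit of the immunoproteasome, was at 140 and 313 CPM, and the class I gene H2-Q7 at 243 and 591 CPM. The abundant B2m, the light chain of MHC class I, was at 1856 CPM in cKO and 2953 CPM in WT, and H2-K1 at 1206 and 1886 CPM, both within 2-fold. Reads of related H2 genes can be exchanged in counting. Irf1 was the 1 gene higher, at 178 CPM in cKO and 99.6 CPM in WT. In blood-type cells 7 of 8 measured genes of the list were lower, none past 2-fold, with a median of -0.28.

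Genes of lymphatic identity did not differ past 2-fold between the libraries. Of 12 measured, 6 were on each side of 0, and their median log2 ratio was -0.07. The call of lymphatic type used 6 of these 12 genes, with Prox1, Lyve1, Mmrn1 and Reln among them but not Flt4. The levels of those 6 are in part set by the choice of cells. Lyve1, the hyaluronan receptor, stood at 2996 CPM in cKO and 3437 CPM in WT. Prox1 was at 748 CPM in cKO and 655 CPM in WT, Flt4 at 1131 and 1010 CPM, and Reln, a secreted glycoprotein, at 1982 and 2597 CPM. The log2 ratio of Mmrn1 was 0.17 (0.01 to 0.34) and that of Prox1 0.19 (-0.19 to 0.58).

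Other genes named in lymphatic-type cells by the size of their ratio had varied roles. Cmah, which makes a sialic acid of the cell surface, stood at 1332 CPM in cKO (285 UMIs in 14 cells) and 107 CPM in WT (15 UMIs in 6 cells), a log2 ratio of 3.60 (2.90 to 4.50). Id1, a target of BMP signalling, was at 659 CPM in cKO and 64.0 CPM in WT, with 76 of 141 cKO UMIs in 1 cell, and its relative Id3 at 748 and 221 CPM. Of 8 measured BMP and TGF-beta genes 3 were past 2-fold higher, Bmpr2 being the other, at 346 CPM in cKO and 128 CPM in WT. All 3 measured leukocyte adhesion genes were past 2-fold higher: Cxcl1 at 374 and 21.4 CPM, Icam1, which binds leukocyte integrins, at 430 and 35.6 CPM, and Nfkbia at 748 and 235 CPM. Of 92 Icam1 UMIs in cKO, 54 were in 1 cell. For Nfkbia the log2 ratio of 1.65 became 0.28 without the top cell of each library. Past 2-fold lower were the mechanosensitive channel gene Piezo2, at 341 CPM in cKO and 1096 CPM in WT, and Ptgfrn, a membrane protein gene, at 93.5 and 341.5 CPM.

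Markers of other cells, and MHC class II genes, stood beside these values. Summed fibroblast markers in lymphatic-type cells were at 65.4 CPM in cKO and 341.5 CPM in WT, all of them UMIs of Dcn, with 7 of 8 markers at 0. MHC class II genes, which are not a marker list of another cell type here, summed to 74.8 CPM in cKO (16 UMIs) and 576 CPM in WT (81 UMIs) lymphatic-type cells. Their summed log2 ratio was -2.91 (-3.82 to -2.16), and which cells the UMIs came from was not tested. Neutrophil markers were at 131 CPM in cKO (28 UMIs) and 28.5 CPM in WT (4 UMIs), with 4 of 8 at 0. Macrophage and monocyte markers were at 32.7 CPM in cKO and 49.8 CPM in WT, and epithelial markers at 1122 and 1046 CPM. Their part in the results was not tested.

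**Figure D5:**
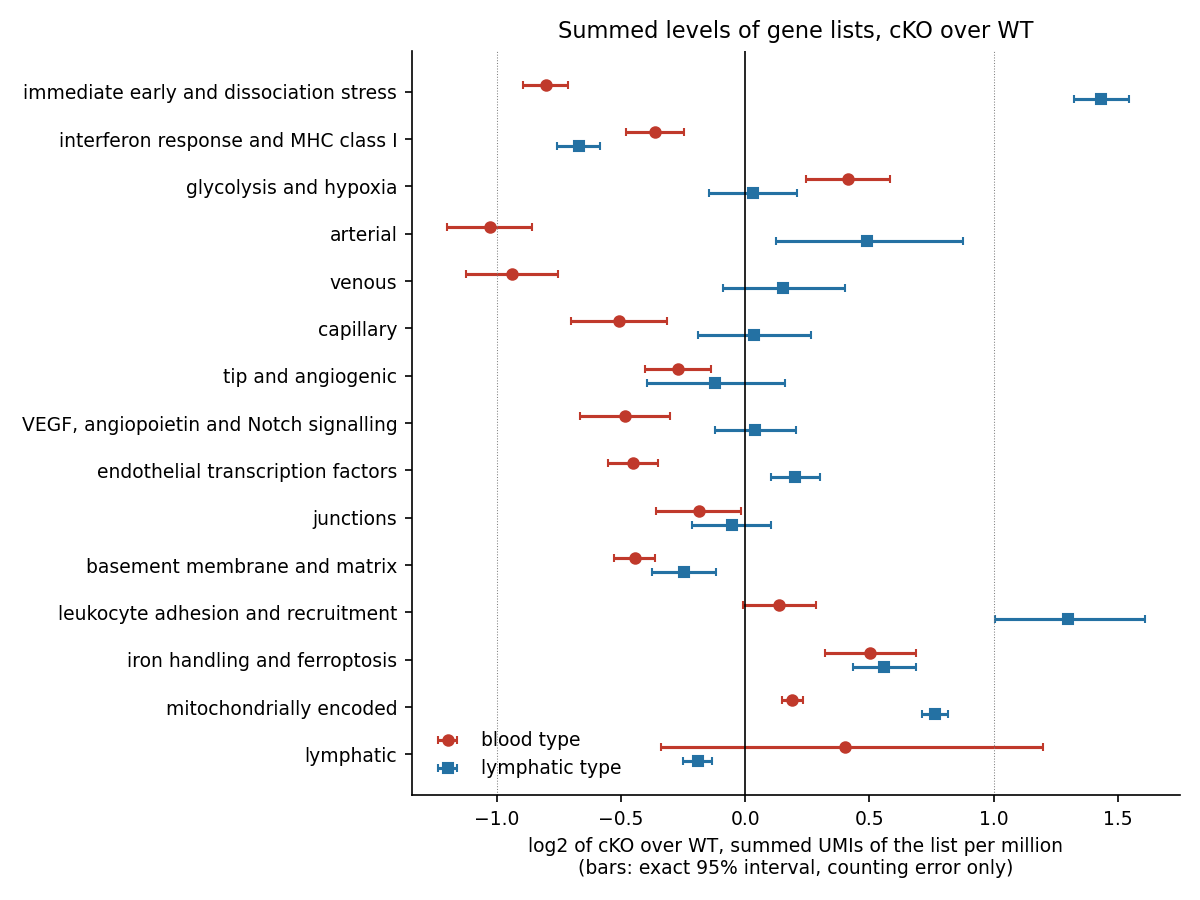
Points are log2 ratios of cKO over WT of the summed UMIs of each gene list, scaled to the total UMIs, for blood-type cells (circles) and lymphatic-type cells (squares), with exact 95% intervals of counting error; dotted lines mark 2-fold. Immediate early genes lie at -0.80 in blood type and 1.43 in lymphatic type, arterial genes in blood type at -1.03, and interferon genes in lymphatic type at -0.67.

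Iron handling genes, which the series concerns through ferroptosis, were measured at low counts in vessels apart from ferritin and, in lymphatic-type cells, Cp. Cp had 298 UMIs in cKO and 114 UMIs in WT lymphatic-type cells. Fth1, the ferritin heavy chain, stood in blood-type cells at 1692 CPM in cKO and 1155 CPM in WT, a log2 ratio of 0.55 (0.27 to 0.83). In lymphatic-type cells it stood at 5839 CPM in cKO and 3401 CPM in WT, a log2 ratio of 0.78 (0.63 to 0.93). Neither was past 2-fold, and ferritin genes have processed copies. Gpx4, the peroxidase that protects lipids from ferroptotic damage, was at 172 CPM in cKO and 188 CPM in WT blood-type cells, and at 206 and 384 CPM in lymphatic-type cells. None of the 5 measured genes of the list was past 2-fold in blood type, and none of 5 in lymphatic type. Mitochondrially encoded genes were higher in 12 of 12 measured cases in lymphatic-type cells, with a median of 0.73 and 1 past 2-fold, mt-Atp8, and in 10 of 12 in blood-type cells, with a median of 0.18. Coagulation and vascular tone genes were higher in 6 of 8 measured cases in cKO blood-type cells, 1 past 2-fold. That gene was Plaur, the urokinase receptor, at 285 CPM in cKO and 79.4 CPM in WT, with 31 of 53 cKO UMIs in 1 cell. In lymphatic-type cells 4 of 6 were higher, 2 of them past 2-fold, and 1 was past 2-fold lower. Thbd, the anticoagulant receptor thrombomodulin, stood at 374 CPM in cKO (80 UMIs in 18 of 22 cells) and 135 CPM in WT (19 UMIs in 5 of 11 cells), a log2 ratio of 1.44 (0.73 to 2.27). Thbs1, an inhibitor of angiogenesis, stood at 131 CPM in cKO and 313 CPM in WT. Cell cycle genes were sparse, with none of the list measured in blood type, where they summed to 698 CPM in cKO and 462 CPM in WT, and 1 in lymphatic type, where they summed to 636 and 697 CPM. Junction genes stayed within 2-fold throughout, with 9 measured in blood type at a median of -0.14 and 8 in lymphatic type at a median of -0.03.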

How the data were processed

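The deposited files were 2 count matrices of UMIs per gene and cell barcode, 1 per genotype, which the authors made using Cell Ranger (version 7.2.0), as given per the file headers. Seurat 3.0 and the build mm10 appear in the submitters' processing notes. Counts were not normalised, and no value column was left unused (0 columns). Cells were kept at 500 or more genes, 800 or more UMIs and at most 25% mitochondrial UMIs. The members and gene lists were chosen with earlier results of these data known. Division into epithelial, blood and lymphatic types was added after the data were seen.

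Counts were summed over the cells of a type and library and divided by their total. Log2 ratios had a prior count of 0.5 and exact conditional binomial intervals, levels had exact Poisson and shares exact Clopper-Pearson intervals at 95%, all for counting error only. A gene counted as measured with 50 or more UMIs over both libraries, and as called past 2-fold. With 1 library per genotype no p-value was computed and cells were not treated as replicates. Named between libraries were the 15 genes with the largest ratios each way over all members and 10 per type, among measured genes whose interval left out 0 and whose CPM, in the library where it was higher, was at least that of the other filtered cells. Between lymphatic and blood type they were the 25 with the largest smaller ratio each way, without the genes of the rule and of the lymphatic call. Neither naming took sex-linked or mitochondrial genes, globins, antigen receptors, ribosomal proteins or unnamed models, and members of the lists were named besides. A fold against 0 UMIs used a limit of 3 counts over the group. Doublets were scored with Scrublet in scanpy 1.11.5 and kept. The calculations were tested on simulated data and used Python 3.11.15, numpy 2.4.6, scipy 1.17.1, pandas 2.3.3 and matplotlib 3.10.9. Promoters came from RefSeq on GRCm38.p6. Some genes of the lists are not reported here.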

Additional observations from a re-analysis of the deposited data

Results flagged for a closer look

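The summed log2 ratio of cKO over WT lay on opposite sides of 0 in the vessel types for 3 gene lists, with intervals of counting error that excluded 0. For immediate early and stress genes it was 1.43 in lymphatic-type cells and -0.80 in blood-type cells, a difference of 2.23. For endothelial transcription factor genes it was 0.20 in lymphatic-type cells and -0.45 in blood-type cells, a difference of 0.65. For arterial genes it was 0.49 in lymphatic-type cells, where 1 gene of the list reached 50 UMIs, and -1.03 in blood-type cells, a difference of 1.52. Klf2, Klf4 and Klf6 belong to the immediate early and the transcription factor list, and Mecom and Sox17 to the transcription factor and the arterial list. The value of 1.43 includes the 2 deepest cKO lymphatic-type cells, which had the highest levels of the immediate early list in that group. The ratio without both cells was not computed. None of the differences was tested, since each genotype had 1 library.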

How the results depend on the processing

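No paired analysis was possible because each genotype had 1 library, and for the same reason no replicate could be left out. Settings by type and those without single cells were added after the data were seen. The share of endothelial cells in cKO was 0.657% without members at 10 or more epithelial UMIs per 10000 and 0.744% of all deposited barcodes. In WT it was 0.506% at 8 marker UMIs and 12 per 10000, 0.287% without members at 10 or more epithelial UMIs per 10000, 0.540% without members of epithelial type and 0.476% of all deposited barcodes. The lymphatic share in cKO was 25.9% with lymphatic genes added to the rule's markers. Over all members, genes past 2-fold higher and lower in cKO numbered 89 and 86 at the stricter markers, 78 and 81 under the epithelial limit, 78 and 72 without epithelial type, 210 and 304 by the mean of per-cell CPM, 59 and 84 in blood type, 87 and 51 in lymphatic type, 369 and 466 at 20 or more UMIs, and 28 and 27 at 200 or more. At 20 and 200 UMIs, blood type had 288 and 9 higher and 275 and 5 lower, and lymphatic type 277 and 15 higher and 225 and 1 lower. Genes higher in lymphatic than blood type in both libraries numbered 415 at 20 UMIs, 53 at 200 UMIs and 415 with epithelial type kept, and genes lower 386, 41 and 574 in the same settings. Fewer genes were tested at higher minimums and in fewer cells. Over all members, Ifih1 reversed to -0.48 (stricter markers), -0.37 (epithelial limit), -0.29 (no epithelial type), -0.91 (blood type) and -0.36 (without the cell with most UMIs). Ifit1 reversed to -0.80, -1.10, -0.52, -1.32 and -1.59 in the same settings. Cmah reversed to -4.13 in blood type, and Papss2 to 0.062 and Abcc2 to 0.36 at the stricter markers. The cause was not tested. In blood type the median ratio of immediate early genes ranged from -1.13 to -0.76, of arterial genes from -1.44 to -0.69 and of glycolysis genes from 0.40 to 1.52 over the alternatives run. In lymphatic type that of immediate early genes ranged from 0.87 to 1.83 and of interferon genes from -1.05 to -0.63. Counts of 11 to 22 cells per type and library limit every ratio.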
